A study of Mus musculus with 24 samples.

Results

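Expression of 10 regulators of cytokine mRNA decay was followed in colonic lymphocytes recovering from chemical injury. The genes were taken as a fixed list of 4 families, whatever their values: the ZFP36 genes Zfp36, Zfp36l1 and Zfp36l2, the regnase genes Zc3h12a, Zc3h12c and Zc3h12d, the roquin genes Rc3h1 and Rc3h2, and the BTG genes Btg1 and Btg2. All 10 were found among the 27179 genes of the count table, and all 10 passed the filter on low counts in every comparison. All 10 are protein coding. In the RefSeq annotation of GRCm38, Btg2 (chr1:134074865-134079155) and Rc3h1 (chr1:160906411-160974976) lie on chromosome 1, and Zc3h12d (chr10:7832323-7870397) and Btg1 (chr10:96617001-96622813) on chromosome 10. The others lie apart, Rc3h2 at chr2:37368861-37424370, Zc3h12a at chr4:125118414-125127881, Zfp36 at chr7:28376784-28379228, Zc3h12c at chr9:52109569-52168730, Zfp36l1 at chr12:80107760-80113013 and Zfp36l2 at chr17:84183924-84187947.

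ZFP36 proteins bind AU-rich elements in the 3′ untranslated region (3′ UTR) of mRNAs that encode cytokines and other short-lived products, and recruit the CCR4-NOT complex, which removes the poly(A) tail. Regnases are endonucleases that cut stem-loops in the 3′ UTR, and roquins bind similar stem-loops and bring in the same deadenylase. BTG proteins bind the deadenylase subunits of CCR4-NOT directly, and Btg1 and Btg2 are known for keeping T cells quiescent. Several of these genes are themselves induced quickly when lymphocytes are stimulated, and their proteins then limit the cytokine response.

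Lamina propria cells of the colon were sorted from mice with an iCre-eGFP allele at Nmur1, whose product is bound by neuromedin U (NMU), a neuropeptide. Of 3 populations, the first was eGFP+ innate lymphoid cells of group 2 (ILC2), taken as KLRG1+ CD127+ CD90.2+ cells among the lineage-negative CD45+ fraction, and the others were CD4 T cells, either with eGFP (NMUR1+) or without it (NMUR1-), both taken as CD4+ CD5+ CD3+ CD45+ cells. All mice had drunk 3% dextran sulfate sodium (DSS), an agent toxic to the epithelium of the colon, over 5 days, followed by 3 days of water, so no group shows the uninjured colon. NMU or phosphate-buffered saline (PBS) was injected into the peritoneum every other day. In the labels, NMU went to mice 1 to 4 and PBS to mice 5 to 8, with 1 library per mouse and population, which gives 24 libraries in 6 groups of 4. The design text counts 3 mice per treatment, and the 4 named in the labels were used. For the mice, age, sex and strain background were not given in the sources used here.

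Library totals ran from 8485266 to 17854961 counts. The gates could be checked in part on defining genes. Il7r (CD127) was higher in ILC2 than in NMUR1+ and NMUR1- cells (log2 1.06 and 1.52, edgeR adjusted p = 2.51e-06 and 9.29e-09). Klrg1 was higher than in NMUR1- cells (log2 3.34, edgeR adjusted p = 8.86e-08). Against NMUR1+ cells Klrg1 did not pass (log2 0.66, edgeR adjusted p = 0.0945). Thy1 (CD90.2) was lower in ILC2 in both comparisons (log2 -1.49 and -2.27, edgeR adjusted p = 1.54e-07 and 2.13e-10). Cd3e averaged 3.76 ± 3.10 CPM (normalised counts, relative to library sizes scaled by trimmed mean of M values) in ILC2 of NMU mice and 7.68 ± 4.31 CPM in ILC2 of PBS mice, against group means of 794 to 927 CPM in the T cells (SD, n = 4). Plasma cell transcripts (immunoglobulin genes with Jchain) made up 0.0241 to 7.93% of an ILC2 library, 0.146 to 5.58% of an NMUR1- library and 0.784 to 30.4% of an NMUR1+ library. Above 20% were 4 NMUR1+ libraries, from mice 1, 4, 5 and 7. Summed over 12 macrophage and dendritic cell genes, NMUR1+ libraries had 992 to 3327 CPM, NMUR1- libraries 275 to 1000.2 CPM and ILC2 libraries 42.1 to 969.5 CPM. In bulk RNA, fewer cells of a type and less RNA per cell cannot be told apart.

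Several regulators carry in their own 3′ UTR the element that ZFP36 proteins bind. The 7-base core TATTTAT was searched on the transcript strand in the 3′ UTR of the longest coding transcript of each gene (GENCODE M21, GRCm38), and 27.7% of 20731 genes had at least 1 copy. Among the regulators, Zfp36, Zfp36l1, Zfp36l2 and Rc3h2 had 3 copies each, Rc3h1 and Zc3h12c had 2, Btg2 had 1, and Btg1, Zc3h12a and Zc3h12d had 0. These UTRs differ in length, from 774 bases in Zfp36 to 7181 bases in Rc3h1, and the share over all genes is not matched for length. The sites shown are the 3 of Zfp36, which lie within a short stretch and of which the first 2 printed share their flanks, and 1 each of Zfp36l1, Zfp36l2 and Btg2, to let the flanks be compared. Capitals mark the core, and the sequences run 5′ to 3′ on the minus strand of GRCm38.
Zfp36 site at chr7:28376969-28376991: gggcccttTATTTATgacgactt
Zfp36 site at chr7:28376954-28376976: gacgacttTATTTATtgtattaa
Zfp36 site at chr7:28376929-28376951: ttttatagTATTTATatatattg
Zfp36l1 site at chr12:80108425-80108447: tcaaaacgTATTTATtgccaaac
Zfp36l2 site at chr17:84184917-84184939: atttaactTATTTATtatcttgt
Btg2 site at chr1:134077252-134077274: tgaagagcTATTTATacatgttt

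Promoters are shown for Zfp36, Zfp36l1 and Btg2, the regulators that were higher in ILC2 than in both T cell populations with no overlap and at a high level. The RefSeq table of GRCm38.p6 gave the 250 bases before the transcription start for 9 of the 10 regulators. Both strands were searched for the cAMP response element TGACGTCA, the AP-1 element TGANTCA, the GC box GGGCGGG, the CArG box that serum response factor is known to bind, and the NF-kappaB element. Over 32851 promoter windows of the same length, the share with a match was 1.55% for the cAMP response element, 6.75% for AP-1, 23.4% for the GC box, 1.47% for the CArG box and 7.25% for NF-kappaB. Zfp36 had a CArG box, Btg2 a cAMP response element, Zfp36l1 and Rc3h1 an AP-1 element, and Zc3h12c an NF-kappaB element. Btg1, Btg2, Rc3h1 and Zc3h12a had at least 1 GC box, and no matches overlapped. A match is a string of letters and was not tested for binding. Capitals mark the CArG box in Zfp36, the AP-1 element in Zfp36l1 and the cAMP response element in Btg2, and all 3 windows run 5′ to 3′ on the minus strand.
Zfp36 promoter at chr7:28379229-28379478: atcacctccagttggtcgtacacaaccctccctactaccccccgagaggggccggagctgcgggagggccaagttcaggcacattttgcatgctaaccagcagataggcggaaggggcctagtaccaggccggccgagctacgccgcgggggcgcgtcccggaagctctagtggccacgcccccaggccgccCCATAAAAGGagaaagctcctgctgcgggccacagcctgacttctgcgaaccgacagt
Zfp36l1 promoter at chr12:80113014-80113263: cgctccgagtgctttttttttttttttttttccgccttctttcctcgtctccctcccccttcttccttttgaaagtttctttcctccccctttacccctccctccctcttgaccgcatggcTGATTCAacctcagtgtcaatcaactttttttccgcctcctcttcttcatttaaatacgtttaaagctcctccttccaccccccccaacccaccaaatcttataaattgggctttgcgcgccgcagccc
Btg2 promoter at chr1:134079156-134079405: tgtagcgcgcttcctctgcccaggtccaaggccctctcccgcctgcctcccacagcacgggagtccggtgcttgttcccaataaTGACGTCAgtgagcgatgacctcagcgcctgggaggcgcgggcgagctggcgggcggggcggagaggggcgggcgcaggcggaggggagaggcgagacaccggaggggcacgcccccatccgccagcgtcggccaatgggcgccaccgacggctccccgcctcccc

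The populations were compared first, in 1 edgeR fit of all 24 libraries that averages the treatments within each population. ILC2 had more RNA of most regulators than either T cell population, and far less of 1. Against NMUR1+ T cells, 8 of the 10 regulators were higher and 1 was lower in ILC2 at an adjusted p under 0.05, where 38.6% of all 13509 genes tested passed, 15.1% higher and 23.5% lower. Against NMUR1- T cells, 6 were higher and 1 lower, where 40.5% of genes passed, 16.4% higher and 24.1% lower. The median log2 difference of the 10 was 0.93 against NMUR1+ and 0.79 against NMUR1- cells, and the medians of all genes were -0.10 and -0.12. The T cell populations differed from each other in 3 of the 10, with 2 higher and 1 lower in NMUR1+ cells, where 8.31% of all genes passed, 5.49% higher and 2.83% lower. With no overlap between the libraries, 4 regulators were higher in ILC2 than in NMUR1+ cells (4.09% of all genes) and 5 higher than in NMUR1- cells (5.86%), and 1 was lower in each (6.14% and 8.53%). Both comparisons with ILC2 share the ILC2 libraries.

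**Figure D1:**
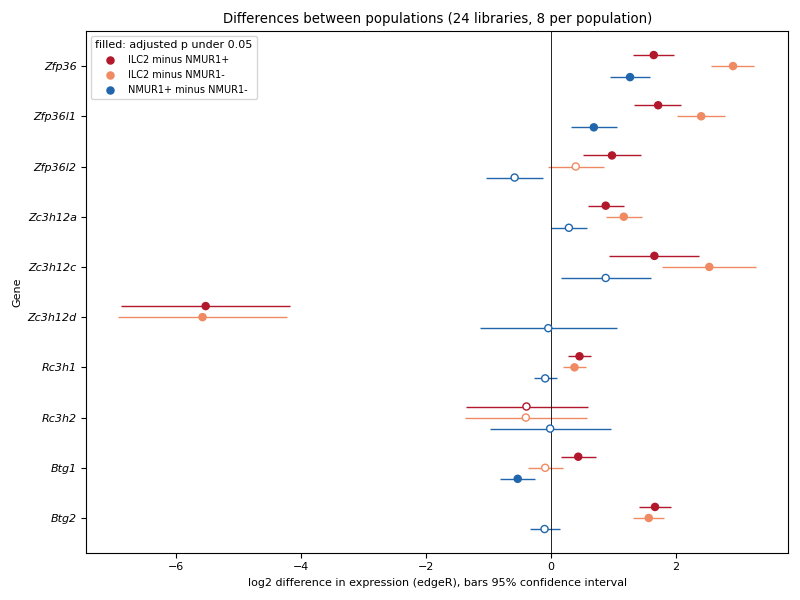
Log2 difference between populations for the 10 regulators (x axis, edgeR estimate with its 95% confidence interval; y axis, gene), with 8 libraries per population and filled points for adjusted p under 0.05. Zc3h12d stands apart at -5.53 and -5.58, Zfp36, Zfp36l1, Zc3h12a, Zc3h12c, Rc3h1 and Btg2 lie to the right of 0 against both T cell populations, and the intervals of Rc3h2 include 0 in all 3 comparisons.

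Zfp36, which encodes tristetraprolin, fell into 3 separate levels. In ILC2 its lowest, median and highest libraries were at 656, 1345 and 1553 CPM. In NMUR1+ cells they were at 311, 356 and 470.4 CPM. In NMUR1- cells they were at 90.3, 169 and 189.8 CPM. No library of one population reached the range of the next, and the order held within each of the 8 mice. The log2 difference was 1.65 between ILC2 and NMUR1+ cells (SE 0.16, edgeR adjusted p = 2.09e-08) and 2.92 between ILC2 and NMUR1- cells (SE 0.17, edgeR adjusted p = 3.49e-12). Between NMUR1+ and NMUR1- T cells it was 1.27 (SE 0.16, edgeR adjusted p = 1.7e-05). Of all genes tested, 2.29% were higher in NMUR1+ than in NMUR1- cells with no overlap between the libraries.

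Zfp36l1, another AU-rich element binding protein of the family, was the regulator with the highest level in ILC2. Its ILC2 libraries ran from 1959 to 2748 CPM with a median of 2484 CPM. NMUR1+ libraries ran from 535 to 901 CPM (median 756) and NMUR1- libraries from 274 to 692.6 CPM (median 394). ILC2 lay above every T cell library, while the T cell populations overlapped. The log2 difference of ILC2 was 1.72 against NMUR1+ (SE 0.18, edgeR adjusted p = 1.07e-07) and 2.41 against NMUR1- cells (SE 0.19, edgeR adjusted p = 5.38e-10). NMUR1+ cells were above NMUR1- cells in 8 of 8 mice, by 0.69 on the log2 scale (SE 0.18, edgeR adjusted p = 0.0162). Between the T cell populations 5 of the 12 macrophage and dendritic cell genes were also higher in NMUR1+ cells and 0 lower, among them Cd14 (log2 2.61, edgeR adjusted p = 0.000913), and their part in the Zfp36 and Zfp36l1 differences was not tested. The Zfp36l1 call between T cells ended when mouse 6, 7 or 8 was left out (edgeR adjusted p = 0.0696, 0.0585 and 0.0746), and also without the 4 NMUR1+ libraries above 20% immunoglobulin (log2 0.52, edgeR adjusted p = 0.222).

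Zfp36l2, the family member known in memory T cells for holding back preformed cytokine mRNA, was scarcer. Its median was 93.2 CPM in ILC2 (49.4 to 192), 78.5 CPM in NMUR1- cells (40.3 to 118) and 44.4 CPM in NMUR1+ cells (35.1 to 74.9). All 3 ranges overlapped. ILC2 exceeded NMUR1+ cells by 0.98 on the log2 scale (SE 0.22, edgeR adjusted p = 0.00115), in 7 of 8 mice. The differences of ILC2 from NMUR1- cells (log2 0.40, 95% interval -0.05 to 0.86) and of NMUR1+ from NMUR1- cells (log2 -0.58, -1.04 to -0.12, edgeR adjusted p = 0.112) did not pass. When only the T cell libraries were fitted, the second of these passed (edgeR adjusted p = 0.0255).

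The regnases did not share a pattern. Zc3h12a, the regnase best known for cutting inflammatory mRNAs, was at a median of 238 CPM in ILC2 (172 to 349), 128 CPM in NMUR1+ (101 to 193) and 105 CPM in NMUR1- cells (81.1 to 151). ILC2 were higher than NMUR1+ cells by 0.88 on the log2 scale (SE 0.14, edgeR adjusted p = 2.74e-05) and higher than NMUR1- cells by 1.17 (SE 0.14, edgeR adjusted p = 5.15e-07), each in 8 of 8 mice. ILC2 libraries overlapped those of NMUR1+ cells and lay above all of NMUR1- cells. The T cell populations differed by 0.29 (SE 0.14, edgeR adjusted p = 0.229), which did not pass.

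Zc3h12c, a regnase of lower abundance, was at a median of 17.5 CPM in ILC2 (11.1 to 24.3), 6.09 CPM in NMUR1+ (1.31 to 9.86) and 2.66 CPM in NMUR1- cells (2.27 to 4.85). All ILC2 libraries lay above all T cell libraries. The log2 difference of ILC2 was 1.66 against NMUR1+ (SE 0.35, edgeR adjusted p = 0.000603) and 2.54 against NMUR1- cells (SE 0.36, edgeR adjusted p = 5.19e-06). Without the 4 NMUR1+ libraries above 20% immunoglobulin the first of these was 2.52 (SE 0.39, edgeR adjusted p = 7.81e-05). The libraries left out had 9.71, 5.99, 6.19 and 9.86 CPM and those kept 3.65, 6.49, 1.31 and 2.51 CPM. A larger difference therefore followed from the choice of libraries.

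Zc3h12d went the other way. It encodes a regnase described mainly in lymphocytes. The 4 ILC2 libraries of NMU mice had 0.692, 9.24, 0.305 and 6.15 CPM (mice 1 to 4), which came from 7, 82, 4 and 86 counts. Those of PBS mice had 8.00, 1.98, 0 and 2.01 CPM (mice 5 to 8), from 96, 25, 0 and 26 counts, and a count of 0 in mouse 7 allows up to 0.277 CPM (3 counts, counting error only). NMUR1+ libraries ran from 123.97 to 225 CPM (median 150.0) and NMUR1- libraries from 128 to 206 CPM (median 169.9). The highest ILC2 library, at 9.24 CPM, was far below the lowest T cell library, at 123.97 CPM. The log2 difference of ILC2 was -5.53 against NMUR1+ (SE 0.65, edgeR adjusted p = 1.49e-06) and -5.58 against NMUR1- cells (SE 0.65, edgeR adjusted p = 1.06e-06), lower in 8 of 8 mice each time. Between NMUR1+ and NMUR1- cells the log2 difference was -0.04 (SE 0.53, 95% interval -1.14 to 1.06). That fit takes 1 spread per gene from all 24 libraries, the low ILC2 libraries among them. Its width therefore does not describe the T cell libraries alone. In fits of 1 T cell population, the SE of the NMU difference was 0.18 in NMUR1+ and 0.15 in NMUR1- cells. T cell genes were low but not absent in ILC2. The 8 CD4 T cell identity genes summed to 319.5 to 702 CPM there and to 5437 to 7978 CPM in the T cell libraries. None of the 8 was at 0 in every library of a group. They differed unevenly from NMUR1+ cells, with Lck at log2 -3.66 and Trac at -7.32, so the sum does not give a share of T cells. The part of T cell RNA in the Zc3h12d counts of ILC2 was not tested.

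The roquins bind stem-loops in mRNAs such as those of Icos and Tnfrsf4. Rc3h1 was at a median of 170.4 CPM in ILC2 (125.1 to 175), 120.3 CPM in NMUR1+ (97.9 to 136) and 123 CPM in NMUR1- cells (108 to 147). Its ranges overlapped, yet ILC2 were above the T cells of the same mouse in 8 of 8 mice in both comparisons. The log2 difference was 0.46 against NMUR1+ (SE 0.09, edgeR adjusted p = 0.000342) and 0.38 against NMUR1- cells (SE 0.09, edgeR adjusted p = 0.00211). The median of Rc3h2 was 25.6 CPM in NMUR1- cells, 21.6 CPM in NMUR1+ cells and 20.9 CPM in ILC2. Its ILC2 libraries spread from 0 to 39.0 CPM, and the ILC2 library of mouse 1 had 0 counts, which allows up to 0.297 CPM. No difference in Rc3h2 passed, with 95% intervals of -1.36 to 0.59 for ILC2 against NMUR1+ and -1.37 to 0.58 for ILC2 against NMUR1- cells, so a 2-fold lower level in ILC2 is within the error.

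The BTG genes were among the most abundant regulators in every population and split by gene. Btg2 was at a median of 2044 CPM in ILC2 (1307 to 2392), 623.6 CPM in NMUR1+ (511 to 722) and 624.4 CPM in NMUR1- cells (535 to 883). All ILC2 libraries lay above all T cell libraries, by 1.67 on the log2 scale against NMUR1+ (SE 0.12, edgeR adjusted p = 2.59e-10) and by 1.57 against NMUR1- cells (SE 0.12, edgeR adjusted p = 3.91e-10). Between the T cell populations Btg2 differed by -0.10 (95% interval -0.34 to 0.14).

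Btg1 had nearly the same level in ILC2 and NMUR1- cells and a lower one in NMUR1+ cells. Its libraries ran from 1840.5 to 2625 CPM in ILC2 (median 2306), from 1348 to 2100.0 CPM in NMUR1+ (median 1604) and from 1809.7 to 3147 CPM in NMUR1- cells (median 2345). NMUR1+ T cells were below ILC2 by 0.44 on the log2 scale (SE 0.14, edgeR adjusted p = 0.0132) and below NMUR1- T cells by 0.53 (SE 0.14, edgeR adjusted p = 0.0172), each in 8 of 8 mice. The difference between ILC2 and NMUR1- cells was -0.09 (95% interval -0.37 to 0.20).

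**Figure D2:**
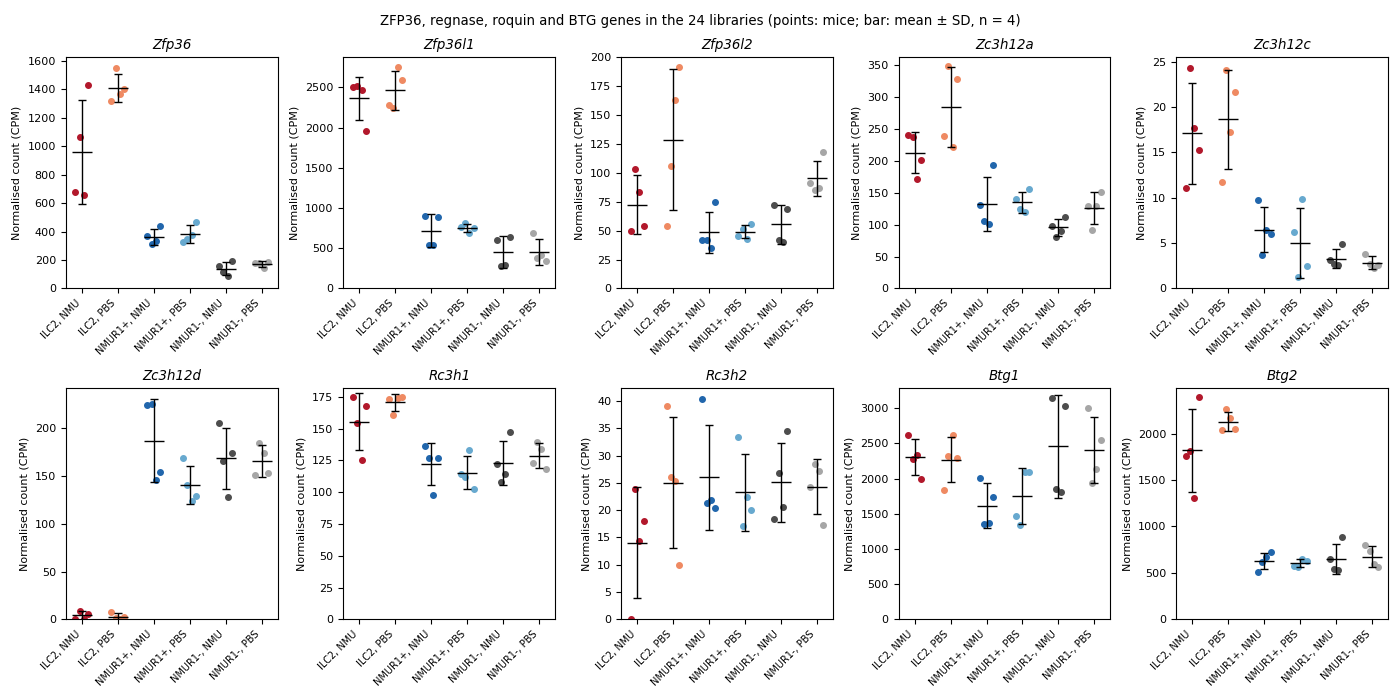
Normalised count (CPM, linear axes from 0) of each regulator in the 6 groups, with 1 point per mouse and the mean ± SD of 4 mice. Zfp36 forms 3 levels that do not overlap between populations, Zc3h12d is at 9.24 CPM or below in all ILC2 libraries, and the points for NMU and PBS overlap within a population for every regulator except Zfp36l2 in NMUR1- cells.

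Library content moved with the last difference. The NMUR1- libraries of mice 1, 4 and 5 had 2.83, 5.58 and 3.95% immunoglobulin counts, and the other 5 had 0.450% or less. The same 3 libraries had the highest Btg1 of the NMUR1- population, at 3147, 3031 and 3000.1 CPM against 1809.7 to 2552 CPM. They also had its highest Zfp36l1, at 605, 639 and 692.6 CPM against 274 to 411 CPM. Their 24 immediate early genes summed to 10036, 11781 and 12120.3 CPM, above the 5529 to 9412 CPM of the other 5. Without these 3 libraries, a choice made after the data were seen, Btg1 no longer differed between NMUR1+ and NMUR1- cells at the threshold (log2 -0.31, SE 0.12, edgeR adjusted p = 0.11), and the same was true without mouse 4 or mouse 5 (edgeR adjusted p = 0.0562 and 0.0647). Zfp36l1 then differed by more, 1.11 on the log2 scale (SE 0.12, edgeR adjusted p = 6.77e-06), and Zfp36 by 1.44 (SE 0.17, edgeR adjusted p = 1.45e-05). Because these 3 libraries held the highest Btg1 and Zfp36l1 of their population, leaving them out moves both differences in these directions by itself. The part of library content in these values was not tested.

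Levels of different regulators were compared per kilobase of the longest coding transcript. In ILC2 the order of the mean was Zfp36l1 (807 ± 81.6 CPM per kb), Btg2 (719.7 ± 124.6), Btg1 (458 ± 54.5), Zfp36 (425 ± 124.3), Zc3h12a (90.3 ± 21.9), Zfp36l2 (28.5 ± 14.9), Rc3h1 (14.8 ± 1.56), Zc3h12c (2.64 ± 0.761), Rc3h2 (2.19 ± 1.32) and Zc3h12d (0.867 ± 0.900; SD, n = 8). Zfp36l1 and Btg2, Btg1 and Zfp36, Zfp36l2 and Rc3h1, and Zc3h12c and Rc3h2 were neighbours that differed by less than the larger of their SDs, and Rc3h2 and Zc3h12d differed by about as much as the SD of Rc3h2. In NMUR1+ cells Btg1 came first (337 ± 68.2 CPM per kb), followed by Zfp36l1 (245 ± 46.9) and Btg2 (225 ± 24.3), which differed by less than their SD. In NMUR1- cells Btg1 (486 ± 114) and Btg2 (242 ± 47.4) led, and Zfp36 was at 55.6 ± 13.1 CPM per kb. Zc3h12d changed its place most: it had the lowest mean in ILC2 and was at 40.1 ± 9.74 CPM per kb in NMUR1+ and 40.8 ± 5.80 in NMUR1- cells, close to Zc3h12a (48.6 ± 10.7 and 40.1 ± 8.87).

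Over the 6 groups, the mean log2 CPM ranged by 6.88 for Zc3h12d, 3.41 for Zfp36 and 2.62 for Zc3h12c, the 3 widest ranges, and by 0.57 for Rc3h1, the narrowest. For these 3, the genes with the most similar profile over the 6 group means were sought among 8077 genes, by the root mean square difference (RMS, log2) of the centred means. Nearest to Zfp36 were Jun (0.15), Fos (0.18) and Egr1 (0.19), which encode transcription factors of the immediate early response. Nearest to Zc3h12c were Pwwp2b (0.12), Ffar2 (0.13) and Cdc42ep3 (0.15). Nearest to Zc3h12d were the T cell receptor segment Trbv26 (0.14), Atp6v0d2 (0.17) and Il1r1 (0.21). The groups share mice, so these values describe profiles and carry no test.

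Immediate early genes were therefore set beside Zfp36 library by library. Jun, Fos and Egr1, found above by their likeness to Zfp36 in these data, are among the 24 listed genes. Their sum is thus not independent of that search. The 24 listed genes, which do not include any of the 10 regulators, summed to 29712 to 49441 CPM in ILC2, 11507 to 18094 CPM in NMUR1+ and 5529 to 12120.3 CPM in NMUR1- cells. Of the 24, 19 were higher and 2 lower in ILC2 than in NMUR1+ cells, 20 higher and 1 lower in ILC2 than in NMUR1- cells, and 12 higher and 0 lower in NMUR1+ than in NMUR1- cells. Of all genes, 15.1, 16.4 and 5.49% were higher and 23.5, 24.1 and 2.83% lower in these comparisons. The ranges of the macrophage and dendritic cell genes and of the immunoglobulin share were also higher in NMUR1+ than in NMUR1- libraries, with overlap. Nr4a1, an orphan nuclear receptor induced by antigen receptor signals, differed by 2.61 and 3.35 on the log2 scale between ILC2 and the T cell populations (edgeR adjusted p = 7.83e-12 and 1.53e-13). Nfkbia, the inhibitor of NF-kappaB, differed by 1.71 and 2.45 (edgeR adjusted p = 8.32e-13 and 1.27e-15). Socs3, a feedback inhibitor of cytokine receptors, was lower in ILC2 in both comparisons (log2 -1.80 and -1.55, edgeR adjusted p = 0.000226 and 0.000867). The part of these genes and of other cell types in the Zfp36 levels was not tested.

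**Figure D3:**
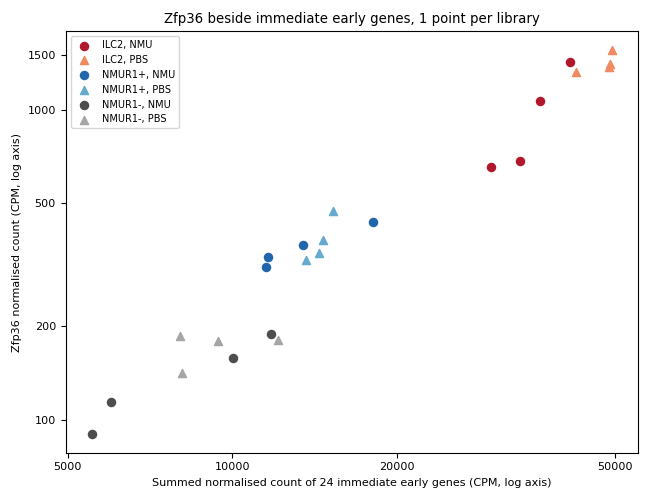
Zfp36 (y axis, CPM, log scale) against the summed CPM of 24 immediate early genes, Jun, Fos and Egr1 among them (x axis, log scale), in the 24 libraries, by population and treatment. The library with the lowest sum, 5529 CPM, had 90.3 CPM of Zfp36 and the one with the highest sum, 49441 CPM, had 1553 CPM, and the ILC2 libraries of NMU mice lie to the left of those of PBS mice.

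NMU was then compared with PBS within each population, on its 8 libraries. In ILC2 0 of the 10 regulators passed, where 74 of 11205 genes (0.660%) did, and 3 of the 10 and 1391 of all genes had an unadjusted p under 0.05. In NMUR1+ cells 0 of the 10 passed, where 0 of 12061 genes (0%) did, with 1 of the 10 and 307 of all genes at an unadjusted p under 0.05. In NMUR1- cells 0 of the 10 passed, where 0 of 12103 genes (0%) did, with 2 of the 10 and 877 of all genes at an unadjusted p under 0.05. DESeq2 called 472, 2 and 21 genes in the 3 populations and limma voom 73, 0 and 0, with none of the 10 regulators among them. The median log2 difference of the 10 was -0.20 in ILC2, 0.02 in NMUR1+ and -0.03 in NMUR1- cells, beside -0.03, 0.00 and 0.01 for all genes.

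The 3 regulators of ILC2 with an unadjusted p under 0.05 all had lower means with NMU. Zfp36 was at 681, 1069, 656 and 1429 CPM in NMU mice 1 to 4 and at 1319, 1553, 1371 and 1401 CPM in PBS mice 5 to 8. NMU mice 1, 2 and 3 lay below all PBS mice, and mouse 4 lay among them. The log2 difference was -0.57 (SE 0.23, 95% interval -1.09 to -0.06, edgeR adjusted p = 0.337). Zc3h12a was at 241, 237, 172 and 202 CPM with NMU and at 239, 349, 222 and 328 CPM with PBS, so the groups overlapped (log2 -0.44, SE 0.18, 95% interval -0.84 to -0.04, edgeR adjusted p = 0.344). Zfp36l2 was at 49.4, 103, 83.7 and 53.9 CPM with NMU and at 54.4, 106, 163 and 192 CPM with PBS. PBS mice 6, 7 and 8 were above all NMU mice, and PBS mouse 5 was among the lowest (log2 -0.85, SE 0.38, 95% interval -1.69 to -0.02, edgeR adjusted p = 0.391). The 24 immediate early genes summed to 29712 to 41479 CPM with NMU and to 42407 to 49441 CPM with PBS, with no overlap, and of the 24 only Junb, an AP-1 subunit, passed (log2 -0.69, SE 0.10, edgeR adjusted p = 0.0169), a call that ended without mouse 3, 4, 5 or 8 (edgeR adjusted p up to 0.0629). The sums carry no test, and the share of all genes lower with no overlap in this comparison is not given here. The part of the immediate early genes in the Zfp36 values was not tested.

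The other regulators gave these limits in ILC2. The 95% interval of the log2 difference was -0.34 to 0.18 for Zfp36l1, -0.46 to 0.15 for Rc3h1, -0.29 to 0.29 for Btg1 and -0.60 to 0.11 for Btg2, so a 2-fold change lies outside each of these 4 intervals. For Zc3h12c the interval was -1.0 to 0.71. For Zc3h12d (-2.86 to 3.75) and Rc3h2 (-3.05 to 1.36) no difference was detectable, and the wide intervals held a 2-fold change in either direction.

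In NMUR1- T cells Zfp36l2 gave the smallest p of the 10 regulators. Its libraries were at 72.0, 42.1, 40.3 and 68.6 CPM in NMU mice and at 91.5, 85.1, 86.8 and 118 CPM in PBS mice. All 4 NMU libraries lay below all 4 PBS libraries, as did those of 2.57% of the genes tested. The log2 difference was -0.78 (SE 0.21, 95% interval -1.24 to -0.32, edgeR adjusted p = 0.577), and it did not pass. Without the 3 NMUR1- libraries above 2% immunoglobulin it was -1.22 (SE 0.17, edgeR adjusted p = 0.173), also short of the threshold. That choice left NMU mice 2 and 3 against PBS mice 6, 7 and 8. It removed NMU mice 1 and 4, the highest of the NMU group at 72.0 and 68.6 CPM, so a larger drop followed from the choice. Zc3h12a was at 98.6, 81.1, 90.5 and 112 CPM with NMU and at 129.8, 91.2, 130.0 and 151 CPM with PBS, which overlapped (log2 -0.40, SE 0.16, edgeR adjusted p = 0.642). Immediate early genes summed to 5529 to 11781 CPM with NMU and 8005 to 12120.3 CPM with PBS in these cells, which overlapped.

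In NMUR1+ T cells the intervals of Zfp36 and Zfp36l2 were centred near 0. Zfp36 was at 366, 311, 335 and 436 CPM with NMU and at 328, 346, 379 and 470.4 CPM with PBS (log2 -0.07, 95% interval -0.42 to 0.27). Zfp36l2 was at 41.8, 41.9, 35.1 and 74.9 CPM against 45.6, 51.8, 43.2 and 55.9 CPM (log2 -0.02, 95% interval -0.55 to 0.51). Zc3h12d was the 1 regulator with an unadjusted p under 0.05, at 224, 225, 146.2 and 154 CPM with NMU and 169, 141, 123.97 and 129 CPM with PBS. Its groups overlapped through PBS mouse 5, and the log2 difference of 0.41 (SE 0.18, 95% interval 0.01 to 0.81, edgeR adjusted p = 1) did not pass.

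**Figure D4:**
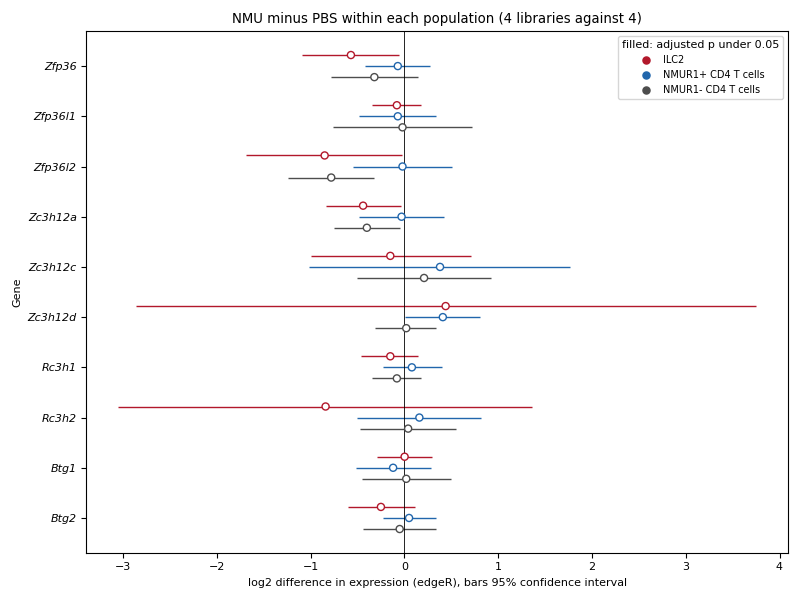
Log2 difference between NMU and PBS mice for the 10 regulators (x axis, edgeR estimate with its 95% confidence interval; y axis, gene) in ILC2, NMUR1+ and NMUR1- cells, 4 libraries against 4. No point is filled, since none passed the threshold, and the widest intervals are those of Zc3h12d and Rc3h2 in ILC2.

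Whether the NMU difference itself differed between populations was tested as an interaction. None of the 10 regulators passed for ILC2 against NMUR1+ cells, where 98 of 13509 genes (0.725%) did, or for ILC2 against NMUR1- cells, where 72 (0.533%) did. At an unadjusted p under 0.05 there were 0 of the 10 in both, with 1789 and 1528 of all genes, and neither DESeq2 nor limma voom called any of the 10. For Zfp36 the NMU effect in ILC2 minus that in NMUR1+ cells was -0.49 (95% interval -1.12 to 0.15), and minus that in NMUR1- cells it was -0.24 (-0.88 to 0.40). For Zfp36l2 these values were -0.81 (-1.72 to 0.10) and -0.06 (-0.97 to 0.85). Zc3h12a gave -0.39 (-0.97 to 0.19) and -0.02 (-0.60 to 0.55).

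The machinery that the regulators recruit was followed with fixed gene lists. Of 16 deadenylation genes, 4 were higher and 2 lower in ILC2 than in NMUR1+ cells, and 4 higher and 4 lower than in NMUR1- cells. Of all genes, 38.6 and 40.5% passed in these comparisons. Tob2 and Tob1, relatives of the BTG genes that also bind the deadenylase, were higher in ILC2 than in NMUR1+ cells by 1.38 and 0.84 on the log2 scale (edgeR adjusted p = 5.17e-07 and 0.000619). Cnot6l, a catalytic subunit of CCR4-NOT, was higher by 1.07 (edgeR adjusted p = 1.07e-06), whereas Cnot8, another catalytic subunit, was lower by 0.99 (log2 -0.99, edgeR adjusted p = 3.7e-07). Cnot11, a further CCR4-NOT subunit, was at log2 -1.11 in ILC2 against NMUR1+ and at log2 -1.06 in NMUR1+ against NMUR1- cells (edgeR adjusted p = 0.00377 and 0.0223). The first of these Cnot11 calls ended without the 4 NMUR1+ libraries above 20% immunoglobulin (edgeR adjusted p = 0.0707), and the second without mouse 2, 3 or 5 (edgeR adjusted p up to 0.0672). Its largest difference was that of ILC2 against NMUR1- cells (log2 -2.17, SE 0.30, edgeR adjusted p = 3.01e-06). Median differences of the list were 0.23 and -0.05 against the T cell populations, beside -0.10 and -0.12 for all genes. With NMU, 0 of 16 passed in any population. In ILC2 the 16 genes summed to 1542 to 1852 CPM with NMU and to 2131 to 2230.1 CPM with PBS, with no overlap. These sums carry no test, and the share of all genes lower with no overlap is not given here. Tob2 was a large part of these sums, at 554 to 768 CPM against 1019 to 1061 CPM. Singled out after its values were seen, it was the nearest to the threshold (log2 -0.59, SE 0.12, edgeR adjusted p = 0.0601). The median log2 difference of the 16 was -0.27, beside -0.03 for all genes, with members both higher and lower.

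Decapping and exosome genes are read against the same shares of all genes, 38.6 and 40.5%. Of 10 genes of decapping and 5′ to 3′ decay, 0 differed between ILC2 and NMUR1+ cells and 2 were lower in ILC2 than in NMUR1- cells. Of 10 exosome genes, 1 was higher and 2 lower in ILC2 than in NMUR1+ cells, and 0 higher and 5 lower than in NMUR1- cells. None of the 6 other AU-rich element binding proteins on the list, among them Elavl1, which stabilises such mRNAs, differed between any populations.

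Genes that act on the regulators were followed next. Of 12 kinases, proteases and cofactors, 0 were higher and 2 lower in ILC2 than in NMUR1+ cells, and 1 higher and 5 lower than in NMUR1- cells. Over all genes lower calls outnumbered higher ones too, at 23.5 against 15.1% and 24.1 against 16.4%. Malt1, the protease that cleaves Zc3h12a and roquin proteins after antigen receptor signals, was at log2 -1.11 and -1.13 (edgeR adjusted p = 3.28e-06 and 2.1e-06). Mapkapk2, the kinase that phosphorylates and inactivates tristetraprolin, was at log2 -0.43 against NMUR1+ cells (edgeR adjusted p = 0.00608) and at 0.00 against NMUR1- cells. Arid5a, which protects some mRNAs from Zc3h12a, was lower than in NMUR1- cells in ILC2 (log2 -0.62, edgeR adjusted p = 0.000219) and in NMUR1+ cells (log2 -0.74, edgeR adjusted p = 0.000349). Between the T cell populations 1 of the 12 was higher and 2 lower in NMUR1+ cells, where 5.49% of all genes were higher and 2.83% lower. Mapk14, the p38 kinase upstream of Mapkapk2, was lower in NMUR1+ than in NMUR1- cells (log2 -1.02, edgeR adjusted p = 0.00155). Mapkapk2 itself was the gene called higher in NMUR1+ cells.

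Reported target mRNAs moved in both directions between populations. Of 17, 7 were higher and 7 lower in ILC2 than in NMUR1+ cells, 8 higher and 7 lower than in NMUR1- cells, and 7 higher and 0 lower in NMUR1+ than in NMUR1- cells. Of all genes, 38.6, 40.5 and 8.31% passed in these comparisons. The AU-rich chemokine mRNA Cxcl2 was higher in ILC2 by 1.93 against NMUR1+ and by 4.36 against NMUR1- cells (log2, edgeR adjusted p = 1.46e-08 and 1.28e-13), and Nfkbiz, a target of Zc3h12a that encodes an NF-kappaB cofactor, by 1.61 and 2.40 (edgeR adjusted p = 9.8e-11 and 1.44e-13). The roquin and regnase targets Icos, Tnfrsf4 and Ctla4, all T cell costimulatory or inhibitory receptors, were lower in ILC2 by log2 -1.0, -6.38 and -5.09 against NMUR1+ cells (edgeR adjusted p = 3.97e-07, 7.49e-17 and 9.36e-14). These receptors are also T cell markers, and the list says nothing about decay rates, which were not measured.

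With NMU, 3 of the 17 target mRNAs were higher in ILC2, as were 0.402% of all genes, and 0 were lower, and 0 of the 16 and 15 tested differed in NMUR1+ and NMUR1- cells. Irf4, a transcription factor gene targeted by roquins and Zc3h12a, was at 169 to 226 CPM with NMU and 37.2 to 60.0 CPM with PBS (log2 2.02, SE 0.19, edgeR adjusted p = 0.00156). Tnfrsf4 was at 57.6 to 93.7 CPM against 7.26 to 19.9 CPM, and Ctla4 at 80.0 to 247 CPM against 20.3 to 34.2 CPM (log2 2.26 and 2.36, edgeR adjusted p = 0.0187 and 0.0248). The groups did not overlap in any of the 3, as in 4.58% of all genes in this direction, and each NMU difference in ILC2 exceeded that in NMUR1+ cells by an interaction test (log2 2.17, 2.20 and 2.31, edgeR adjusted p = 0.000151, 0.000884 and 0.00341), as did 0.222% of all genes tested. The NMU call of Tnfrsf4 ended without mouse 3, 4, 5 or 6 (edgeR adjusted p up to 0.0623) and that of Ctla4 without mouse 4, 5, 6, 7 or 8 (edgeR adjusted p up to 0.098), whereas Irf4 passed without any 1 mouse. Rc3h1 and Zc3h12a did not pass in the same comparison, with log2 differences of -0.15 (95% interval -0.46 to 0.15) and -0.44 (-0.84 to -0.04).

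Genes of other cell types were also compared between the treatments in the ILC2 libraries, and most of their ranges overlapped. Immunoglobulin genes and Jchain took 0.0241, 0.397, 0.867 and 0.314% of the counts in NMU mice 1 to 4 and 7.93, 0.665, 1.58 and 4.49% in PBS mice 5 to 8, and PBS mouse 6 lay within the range of the NMU mice. The 12 macrophage and dendritic cell genes summed to 42.1 to 341 CPM with NMU and 84.7 to 969.5 CPM with PBS, and 9 fibroblast genes to 0 to 33.4 CPM against 12.4 to 415 CPM, both with overlap. The median log2 difference of the tested genes was -1.89 for the 9 macrophage and dendritic cell genes and -4.72 for the 6 fibroblast genes, and 0 of either list passed. Mertk, Itgax and Flt3 were at 0 in all 4 NMU libraries. The 8 epithelial genes summed to 38.4 to 65.0 CPM with NMU and to 13.6 to 32.2 CPM with PBS, with no overlap. Of single genes tested, 4.58% were higher with NMU with no overlap. Most of the NMU sums was Epcam, and the median log2 difference of the 4 genes tested was -0.40, with genes both higher and lower. Of these, Epcam alone passed (32.8 to 60.9 CPM against 8.42 to 14.4 CPM, log2 1.88, edgeR adjusted p = 0.0308), a call that ended without mouse 3, 4, 5, 6, 7 or 8 (edgeR adjusted p up to 0.105), and Muc2 was at 0 in all 4 NMU libraries. The part of these cell types in the NMU differences of the regulators, the immediate early genes, the deadenylation genes and the target mRNAs was not tested.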

How the data were processed

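RNA of 24 libraries was read from the deposited table of whole-number counts per gene, to which the authors applied no normalization as far as the values show. Libraries were made with a low-input kit that amplifies cDNA, per the labels' protocols, and the submitters' processing notes name STAR 2.5.3 and mm10. How reads were counted, with which annotation and strand setting, is not given in the sources used here, so overlapping and antisense genes cannot be separated. Of 27179 identifiers, 25275 (93.0%) matched a RefSeq symbol of GRCm38.p6. Labels name separate mice, so the spread holds animals, sorting and library preparation together; replicate libraries differed by more than sampling noise (lowest chi-square per degree of freedom 16.55). The column codes of all NMU libraries have lower numbers than those of all PBS libraries. What the codes stand for is not given in the sources used here. Anything they follow cannot be told apart from treatment. Reads are copies without molecular identifiers, so limits from a count of 0 cover counting error only.

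Counts were tested with edgeR 4.0.16 (R 4.3.3; filterByExpr with a minimum count of 10, TMM scaling, robust quasi-likelihood fits) and Benjamini-Hochberg adjustment over all genes tested, at a threshold of 0.05. The 95% intervals are from the same fits. NMU and PBS were compared on the 8 libraries of each population, and populations and interactions on all 24. Same-numbered libraries come from the same mouse, per the labels; deviations from group means correlated within a mouse at -0.01 to 0.43. DESeq2 1.42.0, limma 3.58.1 (voom), other scaling and filters, leaving out mice, immunoglobulin genes or libraries rich in them, and mouse as a block were the alternatives. The scripts were tested on simulated data with known changes. Of 2-fold changes, 20% were recovered for NMU in ILC2, 23% in NMUR1+ and 50% in NMUR1- cells. For the interaction of ILC2 with NMUR1+ cells, 3% of 2-fold and 54% of 4-fold changes were recovered. A regulator that did not pass can therefore still have changed.

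The regulators, the gene lists and the tests were chosen with earlier results of these data known. The 10 regulators are given in every comparison; of each list and comparison up to 3 genes per direction with the smallest p among those past the threshold could be named, and for the 3 regulators with the widest range the 3 genes with the nearest profile, among genes with a mean of at least 10 CPM and a prior count of 2 for log2 CPM. AU-rich sites were read from GENCODE M21 and promoters from RefSeq; a promoter of Zfp36l2 was not analysed here. A list of B and plasma cell genes is not reported here.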

Additional observations from a re-analysis of the deposited data

Results flagged for a closer look

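In 60 sets of 4 libraries, 1 for each regulator and group, 4 had a library that lay far from the other 3, measured as its gap to the nearest relative to the whole range. Chance alone flags about 1 in 20 groups. In NMUR1- cells of PBS mice, mouse 7 had 142 CPM of Zfp36, and the other mice had 179, 180.6 and 186 CPM. In ILC2 of NMU mice, mouse 4 had 1959 CPM of Zfp36l1, and the others had 2464, 2503 and 2518 CPM. The same library had the highest Zfp36 of its group. In ILC2 of PBS mice, mouse 6 had 161 CPM of Rc3h1, and the others had 173, 174 and 175 CPM. In NMUR1+ cells of NMU mice, mouse 1 had 40.3 CPM of Rc3h2, and the others had 20.4, 21.4 and 21.9 CPM, whereas the ILC2 library of the same mouse had 0 counts of Rc3h2.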

How the results depend on the processing

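The numbers of regulators called, 9, 7 and 3 between populations and 0 with NMU and in the interactions, stayed within 1.5 times under every alternative run. With mouse as a replicate block they were again 9, 7, 3 and 0. No called regulator changed direction. Directions that turned belonged to differences that had not passed, the largest of them Zc3h12d with NMU in ILC2 (log2 0.44, SE 1.49). Leaving out 1 mouse at a time gave these ranges of the log2 difference. For NMU in ILC2 they were -0.36 to 0.02 (Zc3h12c), -0.32 to 1.61 (Zc3h12d) and -0.08 to 0.08 (Btg1). For NMU in NMUR1+ cells they were -0.18 to 0.04 (Zfp36), -0.21 to 0.04 (Zfp36l1), -0.32 to 0.11 (Zfp36l2), -0.27 to 0.08 (Zc3h12a), -0.13 to 0.38 (Rc3h2) and -0.03 to 0.14 (Btg2). For NMU in NMUR1- cells they were -0.22 to 0.24 (Zfp36l1), -0.03 to 0.37 (Zc3h12c), -0.09 to 0.13 (Zc3h12d), -0.14 to 0.17 (Rc3h2), -0.11 to 0.15 (Btg1) and -0.22 to 0.03 (Btg2). They were -0.16 to 0.03 for Btg1 between ILC2 and NMUR1- cells, and -0.13 to 0.02 (Zc3h12d) and -0.20 to 0.15 (Rc3h2) between the T cell populations. For the NMU effect in ILC2 minus that in NMUR1- cells they were -0.39 to 0.23 (Zfp36l2) and -0.16 to 0.19 (Zc3h12a).

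Other settings turned a few of the same values. Btg1 with NMU was at -0.0017 in ILC2 without immunoglobulin genes and at -0.0021 in NMUR1- cells with limma voom. Rc3h2 between the T cell populations was at 0.02 with DESeq2 size factors, 0.02 with DESeq2 and 0.06 with the replicate block. The Zfp36l2 interaction with NMUR1- cells was at 0.06 with limma voom and 0.07 with the replicate block. Without the 3 NMUR1- libraries above 2% immunoglobulin, NMU in NMUR1- cells gave -0.20 (Zc3h12d), -0.02 (Rc3h2) and -0.26 (Btg1), Btg1 between ILC2 and NMUR1- cells was at 0.16, and Btg2 between the T cell populations at 0.03. The causes were not tested.

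Counts over all genes depended on the tool for NMU in ILC2: edgeR called 74, DESeq2 472, limma voom 73 and the fit of all 24 libraries 1053, and leaving out 1 mouse at a time left edgeR with 12 to 63. DESeq2 also called 2 genes in NMUR1+ and 21 in NMUR1- cells, where edgeR called 0. For the interaction with NMUR1+ cells edgeR called 98 genes, DESeq2 516, limma voom 24, the replicate block 46 and edgeR with no filter 54, and for that with NMUR1- cells 72, 387, 21, 36 and 55. In ILC2 the widest NMU intervals were those of Zc3h12d, with 0 to 96 counts per library, and Rc3h2, with 0 counts in 1 library and 128 to 468 in the others; the causes were not tested.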
